A study of Mus musculus with 15 samples.

Results

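The genes described here are 8 genes of the neural lobe and the ventral hypothalamus: the transcription factor genes Nkx2-1, Rax, Lhx2 and Tbx3, the hormone genes Avp and Oxt, and the glial genes Gfap and Slc1a3. They were given as a list by symbol, drawn up with earlier results of these data known, and all 8 were measured among 18193 genes. They have 19 probe sets on the array: 5 for Tbx3, 3 for Gfap, 6 for Slc1a3 and 1 for each of the other 5 genes.

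RNA pools from pituitaries of newborn (P1) mice on a high fat chow were each measured on 1 Affymetrix whole-genome mouse array, with 5 pools in each of the groups compared. Pit1dw/dw mice, of the DW/J strain, carry the Snell dwarf mutation of Pit1 (Pou1f1), the transcription factor that growth hormone, prolactin and thyrotropin cells need. Pit1+/+ mice, also DW/J, are the wild type. The mutation is carried in the whole animal. The titles call the pools biological replicates, but the sources used here give neither the number of pituitaries in a pool nor the sex of the pups. Sex chromosome genes differed between pools. The Y gene Eif2s3y was at 3.05 in Pit1+/+ pool 1 and at 8.45 or above in every other pool compared. The X gene Xist, active in females, was at 4.20 and 3.89 in Pit1dw/dw pools 2 and 3 and at 3.69 in Pit1+/+ pool 4. In the remaining pools Xist was at 9.60 or above. The part of sex in the differences below was not tested. The model was fitted to 15 arrays, of which 5 belong to another group that is not analysed here beyond its share in the estimate of the spread.

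The neural lobe is the back part of the pituitary. It grows out of the floor of the brain, the ventral diencephalon, whereas the hormone-producing anterior and intermediate lobes come from oral ectoderm. It holds pituicytes, which are astrocyte-like glia, and the endings of axons whose cell bodies lie in the hypothalamus. Vasopressin and oxytocin are made in those cell bodies and travel down the axons, so most Avp and Oxt mRNA lies outside the pituitary. Pit1 acts in cells of the anterior lobe and is not known as a gene of the neural lobe.

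The labels were checked on growth hormone (Gh), which needs Pit1: its log2 signal was 7.15 to 10.31 in Pit1dw/dw, against 14.15 to 14.28 in Pit1+/+. The genotype entry of Pit1+/+ pool 1 contradicts its other labels. On a scale with the other Pit1+/+ pools at 0 and Pit1dw/dw at 1, that pool lay at 0.000228 over 11 genes. Its Gh value was 14.22, among those of the other Pit1+/+ pools, and it was kept under its title. The sensory neuron gene Prph was at 7.79 and 9.89 in Pit1dw/dw pools 2 and 3 and at 10.59 in Pit1+/+ pool 3, and at most 3.78 in the other 7 pools. Pou1f1 itself was not analysed here, because no probe set carries it as its single symbol in the annotation used.

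Of the 8 genes, 0 passed the test in Pit1dw/dw against Pit1+/+, where 0.77% of all genes did. The test was limma's with Benjamini-Hochberg adjustment over all genes and a threshold of 0.05, and 1 of the 8, Oxt, had an unadjusted p under 0.05. The share of all genes under that unadjusted level was not counted. Counts at that level, here and below, are therefore a description only. The median log2 change of the 8 genes was -0.06, beside -0.02 over all genes. In RNA from pools, fewer cells of a type and less RNA per cell cannot be told apart.

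**Figure D1:**
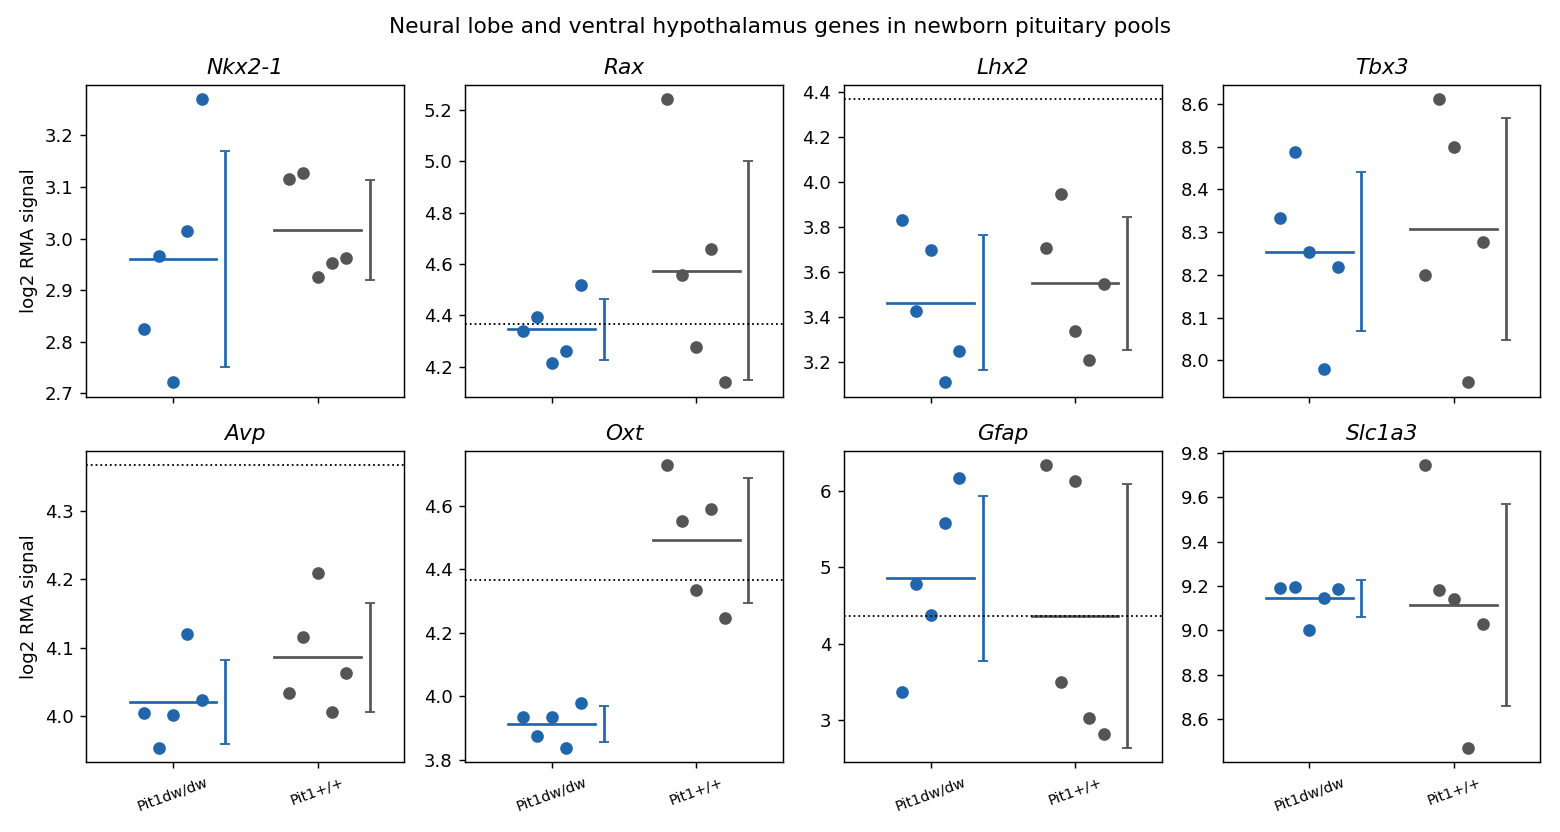
Log2 signal of each gene in every pool, 1 panel per gene, with Pit1dw/dw at the left and Pit1+/+ at the right of each panel. Points are pools 1 to 5 from left to right, the horizontal bar is the group mean, the error bar beside it is the SD over 5 pools, and a dotted line marks the median of all values (4.37) where the axis reaches it. The Oxt means are 3.91 in Pit1dw/dw and 4.49 in Pit1+/+, and Gfap is spread over several log2 units in both groups.

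The plot of values by pool shows how differently the genes are spread. In 3 of the 8, Nkx2-1, Lhx2 and Avp, every pool lay below 4.37, the median of all values of all arrays, so these genes gave dim signals throughout, and a dim probe set can understate a change. Ranked among the probe sets of its array, Nkx2-1 stood at a median percentile of 19.9, Lhx2 at 34.9, Avp at 45.6, Oxt at 46.1, Rax at 50.2, Gfap at 53.0, Tbx3 at 88.0 and Slc1a3 at 92.8. These ranks hold for the brightest probe set of each gene and do not order the genes by transcript number. The other Tbx3 probe sets stood at median percentiles of 82.9, 55.3, 9.99 and 3.26. Those of Slc1a3 ran from 76.0 down to 27.3, and those of Gfap stood at 53.3 and 21.7.

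Among the transcription factors, Nkx2-1 is a homeobox gene needed for the ventral hypothalamus and, in mice, for the neural lobe to form. Its log2 values were 2.83, 2.97, 2.72, 3.02 and 3.27 in Pit1dw/dw, and 3.12, 3.13, 2.93, 2.95 and 2.96 in Pit1+/+. The highest and the lowest pool were both Pit1dw/dw pools, so the groups overlapped. These values lie near background: Pit1dw/dw pools 1 and 3 were within the range of the TrpnX control probe sets, 2.31 to 2.84. Whether this probe set detected Nkx2-1 transcript was not tested. The difference was -0.06 ± 0.11 (log2, SE of the fit), with an adjusted p of 0.961 by limma.

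Rax, a homeobox gene of the retina, of tanycytes (the glia that line the floor of the third ventricle) and of pituicytes, had log2 values of 4.34, 4.39, 4.21, 4.26 and 4.52 in Pit1dw/dw, and 5.24, 4.56, 4.27, 4.66 and 4.14 in Pit1+/+. Pit1+/+ pool 1 stood above the other 9 pools, which lay between 4.14 and 4.66, and the groups overlapped. The difference was -0.23 ± 0.17 (adjusted p = 0.811 by limma). It was -0.062 without Pit1+/+ pool 1 and -0.48 with array weights, and passed in neither.

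Lhx2, a LIM-homeobox gene needed in mice for the infundibulum to grow out, had log2 values of 3.83, 3.43, 3.70, 3.11 and 3.25 in Pit1dw/dw, and 3.71, 3.95, 3.34, 3.21 and 3.55 in Pit1+/+. The groups overlapped over nearly their whole range, and the difference was -0.09 ± 0.16 (adjusted p = 0.960 by limma).

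Tbx3, a T-box gene of the ventral hypothalamus that is also active in many other tissues, had log2 values of 8.33, 8.49, 8.25, 7.98 and 8.22 in Pit1dw/dw, and 8.20, 8.61, 8.50, 7.95 and 8.28 in Pit1+/+, on its brightest probe set. Pit1+/+ held both the highest and the lowest pool. The difference was -0.05 ± 0.14 (adjusted p = 0.976 by limma).

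Of the hormone genes, Oxt encodes the precursor of oxytocin and its carrier neurophysin. Its log2 values were 3.93, 3.88, 3.94, 3.84 and 3.98 in Pit1dw/dw, and 4.73, 4.55, 4.33, 4.59 and 4.25 in Pit1+/+. The signal was dim: all Pit1dw/dw pools and Pit1+/+ pools 3 and 5 lay below 4.37, the median of all values. Every Pit1dw/dw pool lay below every Pit1+/+ pool. Oxt was the 1 gene of the 8 whose groups did not overlap; over all genes 2.78% did not overlap. It averaged 3.91 ± 0.06 in Pit1dw/dw and 4.49 ± 0.20 in Pit1+/+ (SD, n = 5 each). The difference of -0.58 (SE 0.14, 95% interval -0.87 to -0.29) is 1.49-fold lower in Pit1dw/dw, and it did not pass (adjusted p = 0.0715 by limma).

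Whether Oxt passed depended on the setting. Over the alternatives its adjusted p ran from 0.00252 to 0.262 by limma, with a pass in 4 of 26, and it was lower than in Pit1+/+ in all 26. It passed with only the 2 groups in the fit (0.0374), with array weights (0.00252), without Pit1+/+ pool 5 (0.0455) and without pool 3 of the group not analysed here (0.0308), all by limma with the same adjustment. Of 6 anterior lobe hormone genes, Gh, Tshb and Prl were also lower in every Pit1dw/dw pool than in any Pit1+/+ pool, whereas Cga, Lhb and Fshb overlapped. The mean log2 value of the 6 was 6.83 to 8.56 in Pit1dw/dw, against 9.53 to 10.52 in Pit1+/+, and their part in the Oxt difference was not tested. RNA quality, as the log2 difference of the 3′ and 5′ Gapdh probe sets, overlapped, at 1.75 to 2.57 in Pit1dw/dw and 1.96 to 2.97 in Pit1+/+.

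Avp, which encodes the precursor of vasopressin, is the protein-coding gene next to Oxt on chromosome 2. Its log2 values were 4.00, 3.95, 4.00, 4.12 and 4.02 in Pit1dw/dw, and 4.03, 4.12, 4.21, 4.01 and 4.06 in Pit1+/+. The groups overlapped, and the 10 pools lay close together, between 3.95 and 4.21. The difference was -0.07 ± 0.10 (adjusted p = 0.944 by limma).

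Gfap, the intermediate filament of astrocytes and of part of the pituicytes, was the gene whose level depended most on the pool. Its log2 values were 3.36, 4.77, 4.38, 5.58 and 6.17 in Pit1dw/dw, and 6.34, 3.50, 6.13, 3.02 and 2.82 in Pit1+/+. High and low pools occurred in both groups: in Pit1+/+, pools 1 and 3 stood above 6 and the other 3 at 3.50 or below. From lowest to highest pool Gfap differed 6.97-fold in Pit1dw/dw and 11.5-fold in Pit1+/+. Its SD between pools of 1 genotype in the fit, 1.36, exceeded that of 99.6% of all genes, whose median was 0.251. The group means were 4.85 ± 1.08 in Pit1dw/dw and 4.36 ± 1.73 in Pit1+/+ (SD, n = 5 each). The difference was 0.49, with a 95% interval of -1.13 to 2.11 (adjusted p = 0.946 by limma). Leaving out 1 pool at a time gave differences between 0.11 (without Pit1+/+ pool 5) and 0.99 (without Pit1+/+ pool 1). With the pools high in Prph left out the difference was 1.12, a setting chosen after seeing the data, and Gfap did not pass in any of these. The Pit1dw/dw pools that this last setting leaves out, 2 and 3, are also those low in Xist. Prph level and sex of the pools cannot be told apart in it.

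Slc1a3 encodes GLAST, a glutamate transporter of astrocytes, radial glia and tanycytes. Its brightest probe set had log2 values of 9.19, 9.20, 9.00, 9.15 and 9.19 in Pit1dw/dw, and 9.75, 9.18, 9.14, 8.47 and 9.03 in Pit1+/+. The Pit1dw/dw pools lay close together, and the Pit1+/+ pools reached above and below them. The difference was 0.03 ± 0.18 (adjusted p = 0.990 by limma).

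**Figure D2:**
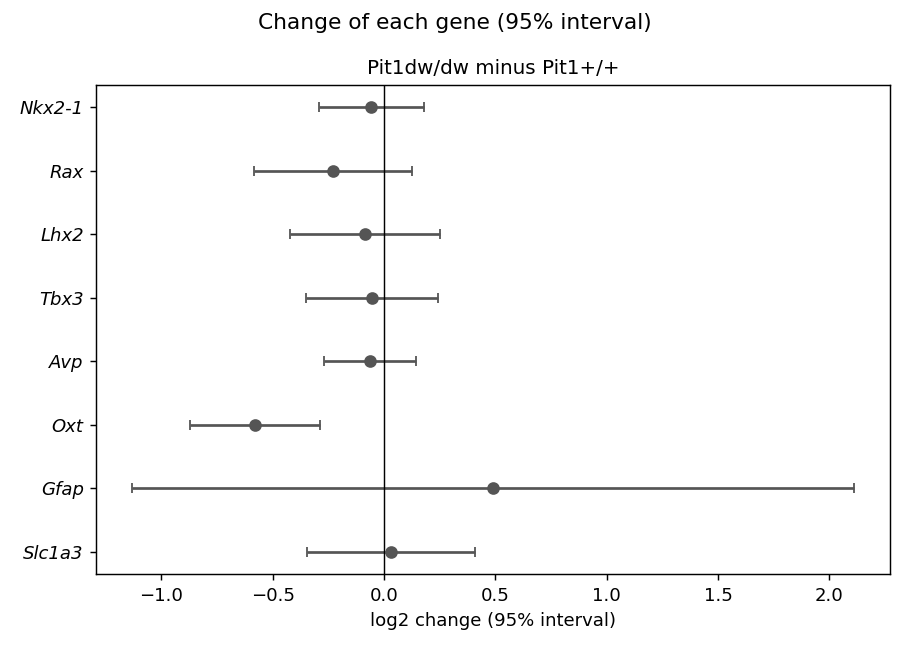
Log2 change of each gene in Pit1dw/dw minus Pit1+/+, with 95% intervals of the fit over 15 arrays; the vertical line marks no change. The Oxt interval (-0.87 to -0.29) is the 1 that leaves out 0, although its adjusted p of 0.0715 is above 0.05, and the Gfap interval (-1.13 to 2.11) is the widest.

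As the plot of changes shows, the intervals of 7 of the 8 genes lay within a log2 change of 1 either way, Gfap being the exception. For the genes that did not pass, these intervals, not the p-values, bound how large a difference in signal the arrays leave room for. Nkx2-1, Lhx2, Avp and Oxt have dim probe sets, which can understate a change, so their intervals do not bound the difference in transcript.

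Genes with several probe sets gave a further check. When every probe set was fitted on its own and adjusted over all probe sets, 0 of 19 passed by limma, with 1 at an unadjusted p under 0.05. That one was the probe set of Oxt, with an adjusted p of 0.11. Several of the 19 probe sets were dim, which limits this check. The 3 Gfap probe sets moved together between pools of a genotype: deviations from the group means on the brightest one correlated with those on the others at r = 0.98 and 0.89 over the 15 pools of the fit, as a description. The Slc1a3 and Tbx3 probe sets did so less, with r from -0.03 to 0.69 for Slc1a3 and from -0.07 to 0.64 for Tbx3.

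The second brightest Slc1a3 probe set had log2 values of 7.56, 7.38, 6.86, 6.86 and 6.84 in Pit1dw/dw, and 6.71, 6.71, 6.62, 6.56 and 8.53 in Pit1+/+. Each Pit1dw/dw pool lay above 4 of 5 Pit1+/+ pools, but Pit1+/+ pool 5 was the highest of all, and the difference of 0.07 ± 0.36 did not pass (adjusted p = 0.995 by limma). Which transcript each of these probe sets reads was not tested.

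**Figure D3:**
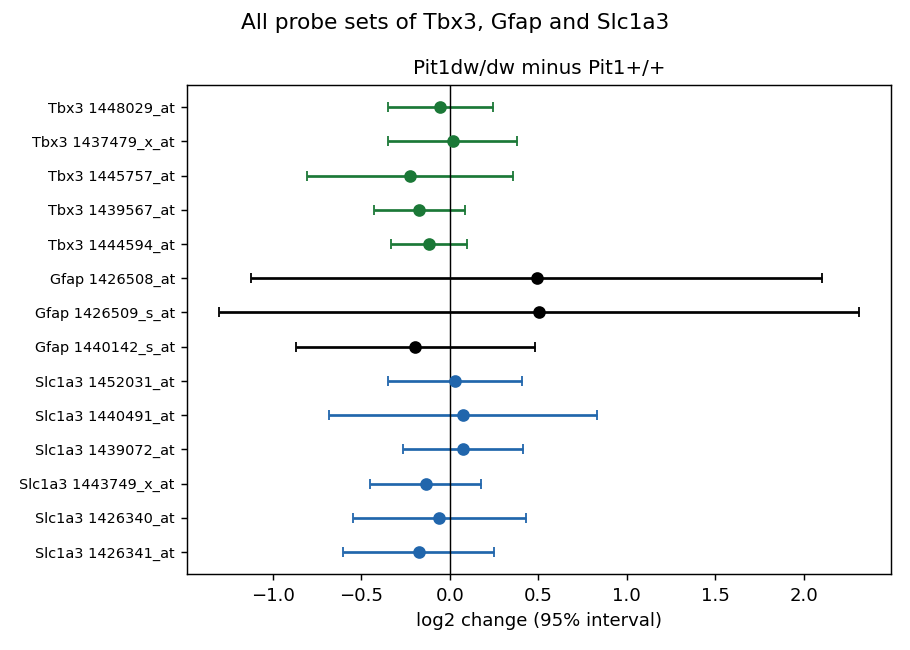
Log2 changes with 95% intervals for each probe set of Tbx3, Gfap and Slc1a3 in Pit1dw/dw minus Pit1+/+. The changes of the Slc1a3 probe sets lie between -0.18 and 0.07 on both sides of 0, and 2 of the 3 Gfap probe sets have the widest intervals.

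Across the 15 pools of the fit, with group means removed, 28 pairs of the 8 genes were compared. After Benjamini-Hochberg adjustment, 0 of 28 passed by the permutation test within groups, for Pearson's r and for Spearman's rho alike (1 each at an unadjusted p under 0.05). For r this was Avp with Gfap, at 0.53 (permutation p = 0.0417, adjusted 0.64). For rho it was Rax with Slc1a3, at 0.60 (permutation p = 0.0489, adjusted 0.705). Gfap and Slc1a3 had r = 0.58 (permutation p = 0.059, adjusted 0.64) and rho = 0.42 (permutation p = 0.181, adjusted 0.705), and r was 0.275 without the 2 pools farthest from the median. Within the groups this r was 0.15 in Pit1dw/dw and 0.71 in Pit1+/+, over 5 pools each.

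For each gene, the 3 genes whose deviations were most like its own over these pools are given as a description with no test, since taking the highest of 18193 correlations over 15 pools favours high values. For Gfap they were glial: Aqp4, the water channel of astrocytes (r = 0.93), Fabp7, the brain-type fatty acid binding protein of radial glia (r = 0.92), and Ncan, the proteoglycan neurocan (r = 0.92). Aqp4 had log2 values of 5.82, 7.12, 7.26, 7.59 and 7.63 in Pit1dw/dw, and 8.01, 5.70, 8.19, 5.44 and 4.80 in Pit1+/+. Fabp7 was at 9.43 and 9.02 in Pit1+/+ pools 1 and 3, and between 5.45 and 5.91 in the other 3. Ncan was at 7.19 and 6.93 in those 2 pools and between 4.36 and 4.98 in the other 3. These 3 genes were picked for their likeness to Gfap, and not every astrocyte gene shared the order. Slc1a2, a further astrocyte glutamate transporter, was at 4.67 and 4.47 in Pit1+/+ pools 1 and 3, and at 4.81, 5.37 and 5.90 in pools 2, 4 and 5. Aldoc, a glycolytic enzyme of astrocytes, was at 9.19, 9.61, 8.67, 9.00 and 9.10 in Pit1+/+ pools 1 to 5.

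**Figure D4:**
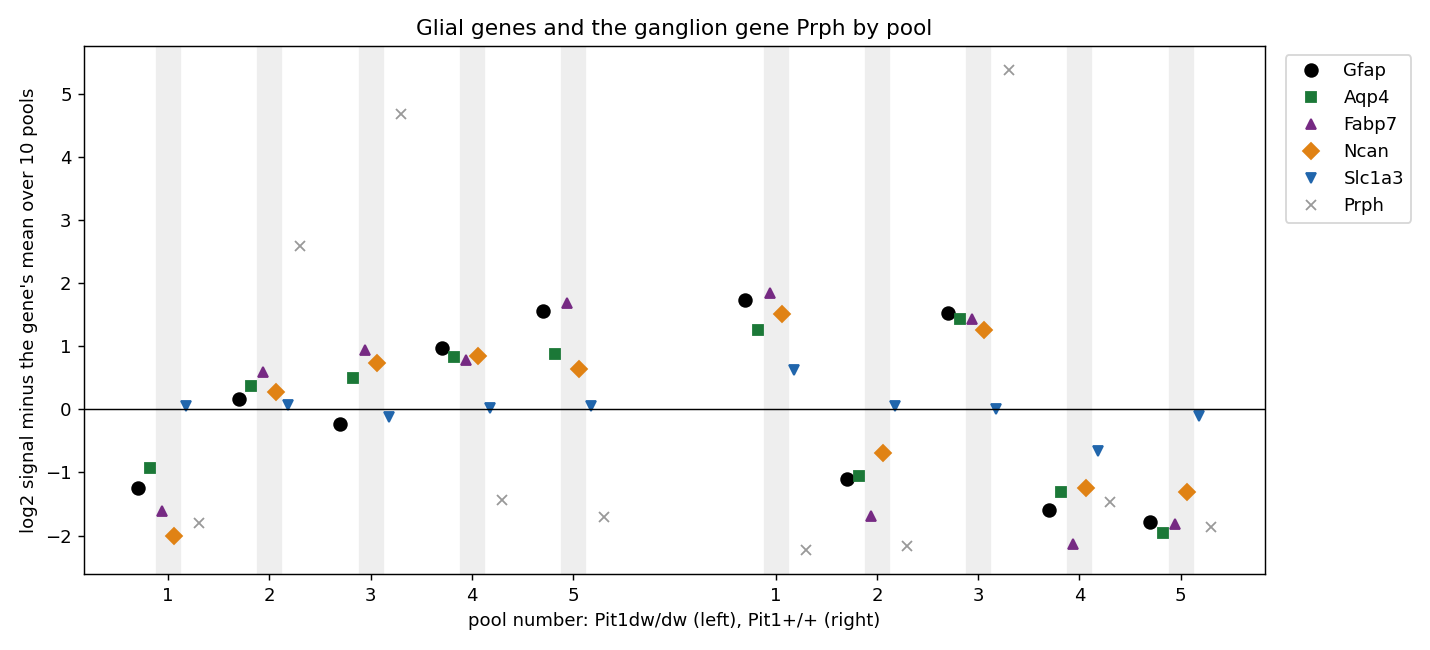
Log2 signal of Gfap, Aqp4, Fabp7, Ncan, Slc1a3 and Prph in each pool, minus that gene's mean over the 10 pools shown; pools 1 to 5 of Pit1dw/dw at the left and of Pit1+/+ at the right. Gfap, Aqp4, Fabp7 and Ncan are high together in Pit1+/+ pools 1 and 3 and low together in pools 2, 4 and 5, Slc1a3 varies less, and Prph is high in 3 pools of which Pit1+/+ pool 1 is not one.

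In the plot of glial genes by pool, Prph, a gene of peripheral and sensory neurons, was high (10.59) in Pit1+/+ pool 3 but low (2.98) in Pit1+/+ pool 1, although Gfap was high in both. In Pit1dw/dw pool 5, where Gfap was highest, Prph was low (3.51), but other genes of the ganglion list were not: Nefl was at 10.76 there, against 7.70 in pool 1, and the list mean was 6.84, against 5.68 in pool 1 and 8.82 in pool 3. How much brain-derived tissue each pool took in was not tested.

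The other genes had neighbours with no common theme named here. For Slc1a3 they were Kcnf1, Cox8b and Cyp4b1 (r = 0.83, 0.78 and 0.77). For Oxt they were Disp3, Ppa1 and Sobp (r = 0.86, 0.85 and 0.85), and for Avp D830012I24Rik, Rims1 and Cdc6 (r = 0.90, 0.88 and 0.87). For Rax they were Yap1, Crabp2 and Asgr1 (r = 0.86, 0.86 and 0.84), and for Lhx2 Marchf4, Gm11681 and Gzmn (r = 0.85, 0.84 and 0.81). For Tbx3 they were Junos, Htr2c and Btbd10 (r = 0.81, 0.79 and 0.79), and for Nkx2-1 Mos, Tspan6 and Crh (r = 0.78, 0.77 and 0.77).

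The 8 genes were set beside lists of related genes, where over all genes 0.165% rose and 0.605% fell in Pit1dw/dw against Pit1+/+. Of 13 pituicyte and neural lobe genes 0 passed by limma, with Sox9 at an unadjusted p under 0.05, and the list's median log2 change was 0.20. The list mean per pool was 8.53 to 8.79 in Pit1dw/dw and 8.11 to 8.75 in Pit1+/+, so the groups overlapped.

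Of 16 astrocyte and radial glia genes, 1 fell (list median 0.13). This was Ptprz1, a receptor tyrosine phosphatase of glia and their precursors, at 8.20, 8.10, 8.08, 7.97 and 7.72 in Pit1dw/dw, and 8.85, 9.04, 8.96, 8.81 and 9.07 in Pit1+/+. Every Pit1dw/dw pool lay below every Pit1+/+ pool. The log2 change was -0.93 ± 0.14 (adjusted p = 0.00259 by limma). Without the 3 pools high in Prph, and those of the other group above the same level, it was -0.98 and did not pass (adjusted p = 0.0628 by limma), a setting chosen after seeing the data. That setting also leaves out the Pit1dw/dw pools low in Xist.

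Of 23 measured regulators of the infundibulum and ventral hypothalamus other than the 4 above, 0 passed by limma, with 2 at an unadjusted p under 0.05 (list median 0.02). Of the 23 changes, 12 were above 0. The 2 genes went opposite ways. Otp was higher in Pit1dw/dw by 0.33 ± 0.14, with overlapping groups, and did not pass (adjusted p = 0.528 by limma). The other, Shh, which encodes the secreted signal Sonic hedgehog and was picked out after its values were seen, was at 3.14, 3.22, 3.20, 3.14 and 3.10 in Pit1dw/dw, and 3.59, 4.02, 3.70, 3.36 and 4.14 in Pit1+/+. The groups did not overlap, which held for 1 of the 23 regulators, beside 2.78% of all genes. The Shh signal was dim, with every pool below 4.37, the median of all values. The difference of -0.60 ± 0.17 did not pass (adjusted p = 0.20 by limma).

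Of 15 measured hypothalamic peptide and enzyme genes, 0 passed by limma, with 1 at an unadjusted p under 0.05 (list median -0.16). That gene, Pmch, the precursor of melanin-concentrating hormone, also picked out after its values were seen, was at 5.11, 5.05, 5.16, 5.27 and 5.10 in Pit1dw/dw, and 5.89, 5.42, 5.30, 5.57 and 5.35 in Pit1+/+. Its groups did not overlap, which held for 1 of the 15 genes, beside 2.78% of all genes. The difference of -0.37 ± 0.12 did not pass (adjusted p = 0.285 by limma).

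Of 8 measured genes for the receptors and processing of vasopressin and oxytocin, 0 passed by limma and 0 had an unadjusted p under 0.05, with a list median of 0.01. Of 8 oligodendrocyte lineage genes, 10 general neuronal genes and 10 sensory ganglion and Schwann genes, 0 passed by limma and 0 at an unadjusted p under 0.05. The list medians were -0.01, 0.09 and 0.77, the ganglion mean per pool lying between 5.68 and 8.82 in Pit1dw/dw and between 5.12 and 9.51 in Pit1+/+. Of the 6 anterior lobe hormone genes 3 fell: the log2 change was -5.40 ± 0.88 for Gh, -5.13 ± 0.57 for Tshb and -1.25 ± 0.18 for Prl (adjusted p = 0.00586, 0.000244 and 0.00259 by limma).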

How the data were processed

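The authors deposited log2 signals from RMA, per the submitters' processing notes; its version was not given in the sources used here. RMA corrects background, normalises by quantiles and summarises probes, which can hide a shift shared by all genes. RNA came from the Ambion RNAqueous Micro kit, per the labels' protocols. Values ran from 1.83 to 14.8, array medians from 4.31 to 4.43, and control probe sets for TrpnX from 2.31 to 2.84. Precision is limited by the number of arrays, and the limma p-values weigh a difference of group means against the spread between pools within groups.

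Of 45101 probe sets, 64 controls were left out; of the other 45037, 34945 name 1 gene, 932 several and 9160 none in the annotation given, and 34741 matched current records (GRCm38.p6), which gave the neighbour of Avp. For each of 18193 genes the probe set brightest on average was used. The fit, by limma 3.58.1 (lmFit, eBayes, two-sided; R 4.3.3), took the 3 group means over 15 arrays, with p-values adjusted by Benjamini-Hochberg over all genes, after the procedure was tested on simulated data. Pairs of genes were compared with two-sided permutation tests within groups (scipy 1.17.1).

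The 8 genes, the lists and the rules were chosen with earlier results of these data known. The rule named all 8 genes, up to 4 genes past the threshold per list and the 3 closest genes per member. Prph, the anterior lobe hormones and the sex genes Eif2s3y and Xist were given as markers beside a result. Otp, Shh and Pmch were named after their values were seen. The pituicyte and astrocyte lists share Fabp7, Gja1, Nes, S100b, Sox9 and Vim. Of 5 melanotroph and corticotroph, 6 bone and cartilage, 5 oral epithelium, 3 red cell, 5 blood vessel and 4 sex genes measured, 0 passed by limma, with 2, 2, 1, 0, 1 and 0 at an unadjusted p under 0.05. An item is not reported here, and the arrays that bear on it, 5 of the 15, served only in the fit.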

Additional observations from a re-analysis of the deposited data

Results flagged for a closer look

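For each of the 19 probe sets, the highest or lowest pool of a group was compared with the other 4. Of 38 groups searched, 2 (5.26%) held a pool whose gap to its nearest neighbour was above Dixon's 95% critical value, and chance alone marks about 1 in 20. The brightest Slc1a3 probe set stood at 9.00 in Pit1dw/dw pool 3, below the next pool at 9.15. The second brightest Slc1a3 probe set stood at 8.53 in Pit1+/+ pool 5, with the next pool at 6.71.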

How the results depend on the processing

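Across the 8 genes in Pit1dw/dw against Pit1+/+ and 27 alternatives, 199 of 212 values kept their direction and their side of the threshold, 4 gained a call (Oxt) and 9 changed sign, none of these past the threshold. The number of the 8 genes that passed was 0; it was 1 with only the 2 groups in the fit and 1 with array weights, and 0 to 1 when 1 pool was left out. With dim probe sets left out, Nkx2-1, Lhx2, Avp and Oxt were not tested. Signs turned with array weights for Slc1a3 (-0.023) and Tbx3 (0.048) and with the mean of its probe sets for Slc1a3 (-0.032). With 1 pool left out, signs turned within -0.18 to 0.013 for Lhx2, -0.13 to 0.0031 for Nkx2-1, -0.13 to 0.19 for Slc1a3 and -0.14 to 0.023 for Tbx3. The cause was not tested. Over all genes 140 passed, but 571 with array weights and 51 without the pools high in Prph, which include the Pit1dw/dw pools low in Xist. With 1 pool left out the number was 83 (without Pit1dw/dw pool 2) to 161 (without Pit1+/+ pool 5). Leaving out any 1 Pit1dw/dw pool gave 83 to 95. Leaving out Pit1+/+ pools 1 to 5 in turn gave 95, 86, 134, 86 and 161. Replicate numbers were shared across groups. Of 5 same-number pairs, 3 had a correlation of deviations above 0.1 (range -0.20 to 0.64). A sample correlated best with its own number in 5 of 10 cases, the choice being among the 5 pools of the other group. These values do not settle whether the numbers pair the pools, and the main fit did not pair them. With the replicate block, 0 of 8 genes and 137 of all genes passed, and Oxt had an adjusted p of 0.143 by limma. Dim signals and 5 pools a group limit what could be seen of Nkx2-1, Lhx2, Avp and Oxt.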
